A study of Mus musculus with 5 samples.

Results

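Gdf10 Fmo2 fibroblasts are stromal cells of the mouse mammary gland whose RNA carries Gdf10, a secreted protein of the TGF-beta/BMP superfamily. They hold little of the RNA that sets apart 3 other kinds of fibroblast. Cells were chosen on measured counts of unique molecular identifiers (UMIs, one per captured RNA molecule). A gated fibroblast had at least 5000 UMIs, at least 500 genes, at most 15% mitochondrial UMIs, at least 100 UMIs per 10,000 from Col1a1, Col1a2, Col3a1, Dcn and Lum together, and no UMI of Ptprc, Epcam, Pecam1 or Rgs5. A member of the class had at least 2 Gdf10 UMIs and under 3 UMIs from each of the gates Pi16 plus Dpp4, Mme plus Fgf10 plus Scg3, and Sbsn plus Krtdap plus Akr1c18. The rule kept 542 cells of 6722 gated fibroblasts among 32472 barcodes, and they are called Gdf10 fibroblasts here. Values of the gate genes describe the choice and were not tested. The remaining 6180 gated fibroblasts are the other fibroblasts.

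Fibroblasts of the mammary gland make the collagen-rich matrix and the secreted signals that surround the ducts and the fat. Gdf10 (also called Bmp3b) acts through TGF-beta family receptors and Smad proteins, and in subcutaneous fat it is known as a marker of stromal cells that restrain the formation of fat cells in culture. Fmo2 is a flavin-containing monooxygenase, Cygb is the oxygen-binding protein cytoglobin, Igfbp3 binds insulin-like growth factors, and Cxcl12 is a chemokine that holds leukocytes and blood progenitors in tissue niches.

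The study captured single cells of mammary tissue from 5 mice, 3 labelled Frmd3 knockout (KO1, KO2 and KO3) and 2 labelled wild type (WT1 and WT2), with a 10x Genomics 3′ kit (v3). Each library is 1 mouse and the unit of replication. The sources used here do not give age, strain or the deleted part of Frmd3. Frmd3 encodes a protein with a FERM domain, which links membrane proteins to the cell skeleton, and the series title places it in Notch signalling of the mammary epithelium.

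The libraries held 3359 to 11040 barcodes and 24197344 to 87577099 UMIs, and the Gdf10 fibroblasts of a library summed to 334988 to 2147646 UMIs. They numbered 144 in KO1, 76 in KO2, 37 in KO3, 123 in WT1 and 162 in WT2. KO2 and WT2 had few cells of the Mme gate alone (14 and 55, against 294 to 510 in the other libraries), and Fmo2, Hhip, Clec11a, Fmod and Meox2 in Gdf10 fibroblasts were higher in both than in the rest. KO3 was the shallowest, with a median of 8169 UMIs in its Gdf10 fibroblasts against 10764 to 14430 elsewhere, and its heat shock genes were high. WT1 had the highest interferon-stimulated genes. Libraries shared 3 to 22 cell barcodes per pair, and no Gdf10 fibroblast's barcode occurred among the Gdf10 fibroblasts of another library.

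Frmd3 itself (mouse build GRCm38, chr4:74013442-74202214, plus strand) was counted in the Gdf10 fibroblasts of every library, also those labelled knockout. The untransformed level was 14.5 UMIs per 1000000 (CPM) in KO1, 16.0 in KO2, 8.96 in KO3, 11.9 in WT1 and 4.66 in WT2, from 26, 18, 3, 17 and 10 UMIs. The knockout and wild-type values overlap. A 3′ tag outside a deleted part would still be counted, so these counts do not check the genotype labels, which are used here as given. Frmd3 was higher in Gdf10 fibroblasts than in the other fibroblasts of the same library in 5 of 5 libraries, at 11.6 ± 4.93 against 2.06 ± 1 CPM (mean ± SD, n = 5, normalised), a log2 difference of 2.67 (SE 0.31, adjusted p = 1.1e-05, edgeR quasi-likelihood test). Pooled over libraries it stood at 10.8 CPM in Gdf10 fibroblasts, 7.28 in mural cells (4 UMIs), 3.47 in endothelial cells, 0.481 in leukocytes and 0.0957 in epithelial cells. Other cell types, Schwann and other glial cells among them, were not measured here, so these values do not rank the gland's cells.

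The label was checked on the genes it is named for. In the fit, Gdf10 (chr14:33923587-33937983, plus strand) reached 529, 754, 613, 553 and 727 CPM in the Gdf10 fibroblasts of KO1, KO2, KO3, WT1 and WT2. Gdf10 stood at 40.1 to 54 CPM in the other fibroblasts, of which 26.2% held a Gdf10 UMI. These include cells with at least 2 Gdf10 UMIs that passed another gate. Fmo2 (chr1:162874317-162898726, minus strand) read 269, 751, 447, 265 and 713 CPM in the same order, against 28.3 to 52.2 in the other fibroblasts. Cygb ranged from 748 to 1048 CPM against 128 to 237, and Cxcl12 from 881 to 1453 against 162 to 332. For Fmo2, Cygb and Cxcl12 every library's Gdf10 fibroblasts lay above every library's other fibroblasts. Gdf10 did so too, but its count is part of the rule, so its values are no check of the label. Igfbp3 went with the label less closely. Its levels were 333, 331, 226, 273 and 878 CPM against 67.4, 217, 47.8, 66.7 and 384, so that WT2's other fibroblasts exceeded the Gdf10 fibroblasts of the other four libraries. Fibroblasts of the Pi16 Dpp4 gate alone held as much Igfbp3 as Gdf10 fibroblasts did in WT2 and KO2 (890 and 330 against 771 and 292 CPM, untransformed).

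Most Gdf10 fibroblasts held a UMI of each label gene. Fmo2 was seen in 74.7% of the 542 cells, against 22.3% of other fibroblasts and 0.410% of 1707 leukocytes, a cell type that should lack it. Cygb was seen in 96.3%, 69.0% and 1.76%, and Cxcl12 in 96.1%, 69.9% and 7.50%. Igfbp3 was seen in 52.6% of Gdf10 fibroblasts, 30.8% of other fibroblasts and 2.11% of leukocytes. Median depths per library were 8169 to 14430 UMIs in Gdf10 fibroblasts, 10693 to 17351 in the others and 7153 to 7866.5 in leukocytes. With every cell thinned to 5000 UMIs the shares for Fmo2 became 60.7%, 13.1% and 0.293%, and those for Igfbp3 43.2%, 21.0% and 1.23%.

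**Figure D1:**
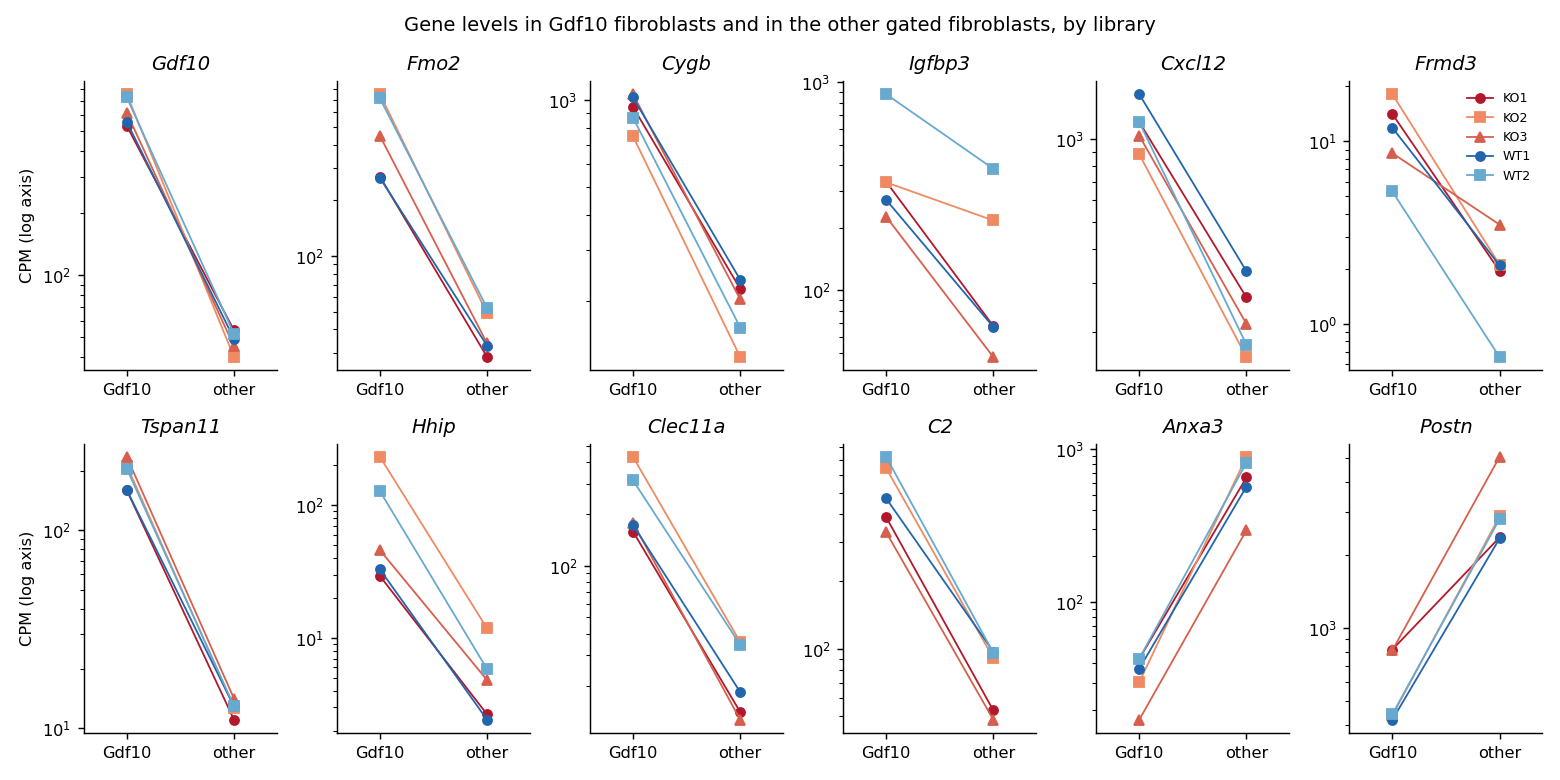
Each panel shows one gene's normalised CPM (log axis) in the Gdf10 fibroblasts (left) and the other fibroblasts (right) of each library, with a line joining the 2 values of a library. Tspan11, Hhip, Clec11a, C2 and Frmd3 lie higher on the left in all 5 libraries, Anxa3 and Postn lie lower, and the sides overlap for Igfbp3.

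The rule draws its line between 1 and 2 Gdf10 UMIs, and the levels of the other label genes did not step there. Among fibroblasts in no other gate, 144 cells had 1 Gdf10 UMI and 99 cells had 2. Mean CPM over the 5 libraries just outside and just inside the line were 192 and 236 for Fmo2, 410 and 512 for Cygb, and 715 and 886 for Cxcl12. Across cells with no Gdf10 UMI, 1, 2, 3 to 4, 5 to 9, and 10 or more, Cygb read 274, 410, 512, 746, 1165 and 1093 CPM. Fmo2 read 80.7, 192, 236, 350, 589 and 556 CPM, so both were highest at 5 or more Gdf10 UMIs. Igfbp3 had no such order, at 208, 524, 515, 410, 440 and 388 CPM, with WT2 at 1826 CPM at 1 UMI. These bins also differ in depth per cell, and KO2 has 7 cells at 1 UMI and 7 at 2.

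Within the class the Gdf10 count itself varied widely. Its median per cell was 5 UMIs in KO1, 8.5 in KO2, 4 in KO3, 5 in WT1 and 7 in WT2, and the highest cell of each library held 24 to 43. The exclusion gates decide much of the class size. Of the fibroblasts with at least 2 Gdf10 UMIs, 29.6% were kept as members in KO1, 52.8% in KO2, 37.4% in KO3, 49.4% in WT1 and 48.1% in WT2. In KO1, 251 of 486 such cells passed the Mme gate.

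The start of Gdf10 is shown because its count defines the class. The 120 bases before the annotated start (RefSeq, GRCm38.p6, chr14:33923467-33923586, plus strand, 5′ to 3′) hold 3 matches of the GC box GGGCGG on either strand, written in capitals, 2 of which overlap by a base. This motif was found in the 250 bases before the start of 32.7% of 32851 RefSeq promoters, so its presence is common.
Gdf10: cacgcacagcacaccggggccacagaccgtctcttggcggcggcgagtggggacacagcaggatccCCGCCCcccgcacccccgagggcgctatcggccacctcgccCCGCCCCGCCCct

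Next, each library's Gdf10 fibroblasts were compared with its other fibroblasts, which asks what else the class carries apart from the genes of its rule. Of 12242 genes tested that were in neither the rule nor the label, 1243 were higher (10.2%) and 1367 lower (11.2%) in Gdf10 fibroblasts at an adjusted p under 0.05 (edgeR quasi-likelihood test with the library as a block, Benjamini-Hochberg). Because the gates removed 3 classes from one side only, a part of these differences describes the removed classes, and the comparison with fibroblasts in no gate is given further on. Without KO2 and WT2, 1807 of the 2610 called genes were called again, none with the opposite sign.

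The genes with the largest differences upward coded for proteins of several kinds, secreted, at the cell surface, cytosolic, nuclear and mitochondrial. Tspan11, a tetraspanin, stood at 159, 212, 235, 160 and 205 CPM in KO1, KO2, KO3, WT1 and WT2 and at 11 to 14.1 CPM in the other fibroblasts, a log2 difference of 3.91 (SE 0.11, adjusted p = 5.6e-12). Clec11a, a secreted lectin known as a growth factor of bone-forming cells, stood at 158, 429, 178, 172 and 313 CPM against 12.6 to 35.8 (log2 3.43, SE 0.11, adjusted p = 2.6e-11). Both sets of values are far apart in every library, and KO2 and WT2 are the high ones for Clec11a. Fgf23, the phosphate-regulating hormone of bone, stood at 20.2 to 51.3 against 0.772 to 2.32 CPM (log2 4.26, SE 0.32). Ccbe1, which is needed for growth of lymphatic vessels, was higher by a log2 of 3.91, and Stc1, a secreted glycoprotein hormone, by 3.60. Fmod, a collagen-binding proteoglycan, was higher by 3.52, at 14.3 to 74.4 against 0.648 to 9.82 CPM. Tifa, an adaptor of innate signalling, rose by 3.92, Gria4, a glutamate receptor subunit, by 3.78, and the homeobox genes Hopx and Meox2 by 3.76 and 3.39. Also named are C7, a terminal complement protein (3.24), Arhgdib, a regulator of small GTPases (3.23), and Ndufa4l2, a mitochondrial protein induced by low oxygen (3.17).

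Hhip, Gli1 and Ptch1 are described together because all are known as targets of Hedgehog signalling. This grouping was made after their values were seen and is no test of the pathway. Hedgehog ligands act through the receptor Ptch1, and the pathway is known to induce these 3 genes itself. Hhip, which binds and limits the ligand, stood at 29.3, 230, 45.8, 32.8 and 127 CPM against 2.42 to 11.8 (log2 3.97, SE 0.18, adjusted p = 8.4e-10). The transcription factor Gli1 stood at 17.3 to 31.5 against 2.05 to 4.42 CPM (log2 3.04). In both genes the 2 kinds of fibroblast do not overlap over libraries. Ptch1 was higher by 1.08 (SE 0.20, adjusted p = 0.00096), and lost the call when the other gates were not used to exclude cells. Gli2 and Gli3, the other Gli factors, differed by 0.52 and -0.19 and did not pass. A Gli binding site written GACCACCCA was in neither the Hhip nor the Ptch1 promoter on either strand within 250 bases, and in 0.225% of all promoters.

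Gdf10 is a ligand of the TGF-beta/BMP family, and members of that family and its pathway fell on both sides. The counts of its 4 lists stand beside 10.2% higher and 11.2% lower of all genes. Of 15 other ligands tested, 2 were higher and 6 lower. Bmp4 stood at 19.0 to 32.2 against 6.14 to 21.8 CPM (log2 1.18), and Tgfb3 was higher by 0.70, a call lost without KO1. Bmp7 was lower by 4.62, with 0 CPM in KO2, KO3 and WT1, Bmp6 had 1 UMI in all Gdf10 fibroblasts against 1254 in the others, and Tgfb2 fell by 1.08. Of 11 receptors, 4 were higher and 3 lower. The higher ones included Acvr2a (1.06), an activin type II receptor, the co-receptor Eng (0.80) and Acvrl1 (0.55). The lower ones were both TGF-beta kinases, Tgfbr1 (-1.18) and Tgfbr2 (-1.02), and the co-receptor Tgfbr3 (-0.37). Tgfbr1 read 28.2, 21.1, 20, 23.7 and 23.9 CPM against 45.7 to 60.7, with no overlap. Of 23 mediators and inhibitors, 6 were higher and 6 lower, among them the latent-complex protein Ltbp4 (2.08), the BMP antagonist Chrdl1 (1.36), the decoy receptor Bambi (1.02), Ltbp1 (-1.03) and the ubiquitin ligase Smurf2 (-1.12). Of 12 target genes, 3 were higher (Tgfbi 2.06, Id4 1.86, Id3 1.11) and 2 lower, one of them Skil (-0.56). The medians of the 4 lists were -0.37, 0.07, -0.03 and 0.28, beside -0.04 for all genes.

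The insulin-like growth factor (IGF) axis also split. Of 14 members tested besides Igfbp3, 3 were higher and 3 lower, beside 10.2% and 11.2% of all genes. Igf1, the growth factor, stood at 500, 1000, 647, 345 and 842 CPM against 196 to 517 (log2 1.04, SE 0.09), higher in each library though the ranges overlap. The binding proteins Igfbp7 (2.28) and Igfbp4 (1.01) were higher, and Igfbp2 (-3.46) and Igfbp6 (-1.09) were lower. Pappa, the protease that cleaves Igfbp4, differed by 2.16 and did not pass (adjusted p = 0.068).

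Of 20 chemokines and cytokines other than Cxcl12, 8 were higher and 2 lower, with a median of 0.96, beside 10.2% and 11.2% of all genes. Against fibroblasts in no gate, a comparison described further on, 2 were higher and 2 lower, with a median of 0.38. In that comparison 7.09% of all genes were higher and 6.73% lower. Il6, an inflammatory cytokine, stood at 553, 1624, 438, 499 and 391 CPM against 62.2 to 225 (log2 2.68, SE 0.14, adjusted p = 1.9e-08). KO2 was the high library for Il6 and also for Cxcl5 (333 CPM against 21.1 to 88.8 in the rest). Cxcl5, a neutrophil attractant, was higher by 2.82, and lost the call without WT1. The eosinophil attractant Ccl11 was higher by 1.35, and Ccl8, Cxcl1, Cxcl16 and the stem cell factor gene Kitl by 1.88, 1.17, 1.33 and 1.37. Il34, a ligand of the macrophage receptor Csf1r, was lower by 3.74, at 0 to 4.88 against 28.4 to 49.0 CPM. Of 11 further genes named in stroma rich in Cxcl12 elsewhere, 5 were higher, including the transcription factor Foxc1 (2.97), the adhesion molecule Vcam1 (1.59) and Angpt1 (1.44), and 2 were lower.

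Enzymes akin to Fmo2 in oxidation and retinoid handling were higher in 14 of 28 and lower in 4, with a median of 0.40. Of all genes 10.2% were higher and 11.2% lower. The 14 became 8 when the other gates were not used to exclude cells. Rdh10, which makes retinal from retinol, stood at 91.0 to 198 against 26.6 to 39.6 CPM (log2 2.19, SE 0.12). Cyp7b1, an oxysterol hydroxylase, was higher by 2.41 and Adh1 by 1.56. Aldh1a3, which makes retinoic acid, was lower by 3.96 (2.17 to 15.4 against 32.3 to 162 CPM). Aldh1a2, which carries out the same step and was added after its values were seen, was higher by 4.59 (SE 0.44), at 2.86 to 21.1 against 0 to 1.68 CPM.

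Complement genes were higher in 10 and lower in 1 of 12 tested, with a median of 1.04, beside 10.2% and 11.2% of all genes. C2, a protease of the classical pathway, stood at 388, 643, 332, 471 and 722 CPM against 48.0 to 97.0 (log2 2.74, SE 0.11, adjusted p = 1.6e-10). The inhibitor Serping1 was higher by 1.02, C4b by 0.98 and the lectin-pathway protease Masp1 by 2.50.

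Interferon-stimulated genes were higher in 20 and lower in 1 of 30, with a median of 0.61, beside 10.2% and 11.2% of all genes. The 20 became 12 without the library block. Interferons act through STAT and IRF factors that bind the interferon-stimulated response element. Ifit1, an RNA-binding antiviral protein, stood at 315, 736, 243, 1269 and 675 CPM against 71.0 to 199 (log2 2.23, SE 0.13, adjusted p = 1.5e-08). Irgm1, an interferon-inducible GTPase, was higher by 1.82, Isg15, a ubiquitin-like modifier, by 1.73, and the GTPase Gbp2 by 1.74. Summed over the list, Gdf10 fibroblasts had 2977 to 7040 CPM and the other fibroblasts 1481 to 3268, with the highest of both in WT1.

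The promoters of these 4 genes are shown because they move together and carry the element, written GAAA, any 2 bases, then GAAAC, and searched on both strands. It was in the 250 bases before the start of 9 of the 25 list genes with an entry, and of 225 of all 32851 promoters (0.685%). Matches are in capitals (overlapping ones run together) within the 120 bases before the start, 5′ to 3′ on the gene's strand, from RefSeq on GRCm38.p6: Ifit1 at chr19:34640769-34640888 (plus), Isg15 at chr4:156200819-156200938 (minus), Irgm1 at chr11:48871421-48871540 (minus) and Gbp2 at chr3:142620543-142620662 (plus). The nearest match begins or ends 86, 72, 24 and 60 bases before the start, in that order. Ifit1, Isg15 and Irgm1 hold 2 matches and Gbp2 holds 1. A match describes the letters only and is no evidence of binding here.
Ifit1: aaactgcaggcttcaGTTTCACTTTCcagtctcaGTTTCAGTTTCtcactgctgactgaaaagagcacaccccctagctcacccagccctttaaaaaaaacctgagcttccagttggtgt
Isg15: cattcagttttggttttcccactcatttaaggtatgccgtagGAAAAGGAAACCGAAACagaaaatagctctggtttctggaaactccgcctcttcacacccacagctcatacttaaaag
Irgm1: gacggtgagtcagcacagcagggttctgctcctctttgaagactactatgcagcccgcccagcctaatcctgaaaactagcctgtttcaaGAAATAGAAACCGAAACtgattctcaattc
Gbp2: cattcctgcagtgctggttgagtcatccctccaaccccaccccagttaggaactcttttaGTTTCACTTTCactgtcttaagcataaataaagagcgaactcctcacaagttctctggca

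Matrix genes differed in both directions, and the balance depended on the class they were compared with. Against the other fibroblasts, 10.2% of all genes were higher and 11.2% lower. Of 32 proteoglycan and elastic matrix genes, 5 were higher and 14 lower there. Of 23 collagens, 3 were higher and 8 lower, and 6 and 14 without KO2 and WT2. Against fibroblasts in no gate the counts were 7 higher and 3 lower of 32, and for collagens 2 higher and 9 lower of 22. These stand beside 7.09% and 6.73% of all genes. Collagens were higher in 10 and lower in 7 of 22 against the Pi16 Dpp4 class, beside 12.1% and 12.6% of all genes. Against the Sbsn class they were higher in 11 and lower in 6 of 21, beside 18.6% and 17.8% of all genes. Fn1, fibronectin, stood at 1487, 1465, 1223, 1037 and 1676 CPM against 3307 to 4852 (log2 -1.62, SE 0.09), and the elastic fibre protein Fbn1 was lower by 1.82. Aspn, a small proteoglycan, fell by 2.54, and Postn, periostin, by 2.41. Basement membrane genes split 4 to 6 of 13, with the linker Nid1 (-1.35) and the laminin chains Lamc1 (-1.04) and Lamb1 (-1.20) lower. The collagen IV chains Col4a3 and Col4a4 were higher by 2.66 and 1.84, the proteoglycan Podn by 1.89, and the calcification inhibitor Mgp by 3.15 (1705 to 3526 against 158 to 379 CPM).

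Receptors and growth factors of other pathways are set beside the shares of all genes, 10.2% higher and 11.2% lower. Hormone receptors called higher were near that share. Of 16 hormone receptors 2 were higher and 4 lower: the prolactin receptor Prlr was higher by 2.25 and the progesterone receptor Pgr lower by 2.85. Of 12 Notch pathway genes 2 were higher and 4 lower; Heyl, a target, was higher by 2.68, and Rbpj, the DNA-binding factor, was lower by 1.06, with Notch2 (-1.27) and Jag1 (-0.89). Of 20 Wnt and R-spondin pathway genes 5 were higher and 7 lower, including Dkk3 (2.24), Wnt2 (-2.51) and Wnt11 (-2.41). Of 20 growth factors 5 were higher and 5 lower, with Bdnf at 2.03, Fgf2 at -1.84 and Pdgfc at -4.03.

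The lower genes of largest size were Myoc, Mrgprg, Dmkn, Gap43, Efhd1, Wnt10b, Lurap1l, Thbs4, Aif1l, Limch1, Dtna, Smpd3, Pcsk6, Tmeff1 and Il18. Myoc, myocilin, had no UMI in the 542 cells, against 58.7 CPM in the others, which is at least 134-fold lower when 3 UMIs over the whole group are taken as the floor (0.439 CPM). Mrgprg had 1 UMI against 40.6 CPM, and Wnt10b, a Wnt ligand, 3 UMIs against 25.2 CPM. Smpd3, a sphingomyelinase, fell by 4.83, and Pcsk6, a protease that activates growth factors, by 4.83. Of 18 genes of adventitial stroma outside the gate, 15 were lower and 0 higher, with a median of -2.08, among them Anxa3 (-4.20) and Sema3c (-2.38). The gate removed cells with Pi16 and Dpp4, which mark that stroma. Of 13 genes outside the rule and label that mark adipogenesis-regulating stroma, 10 were tested. Of these 9 were higher and 1 lower, with a median of 2.56, beside 10.2% and 11.2% of all genes. Among the higher were Vit (2.82) and F3 (2.64), the latter the gene of tissue factor. In fibroblasts of no other gate, Vit averaged 138 CPM at 0 Gdf10 UMIs, 72.0 at 1 and 166 at 10 or more. F3 averaged 73.2, 57.3 and 216 CPM there. Of 16 preadipocyte genes 3 were higher and 3 lower, beside the same shares of all genes, 10.2% and 11.2%.

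**Figure D2:**
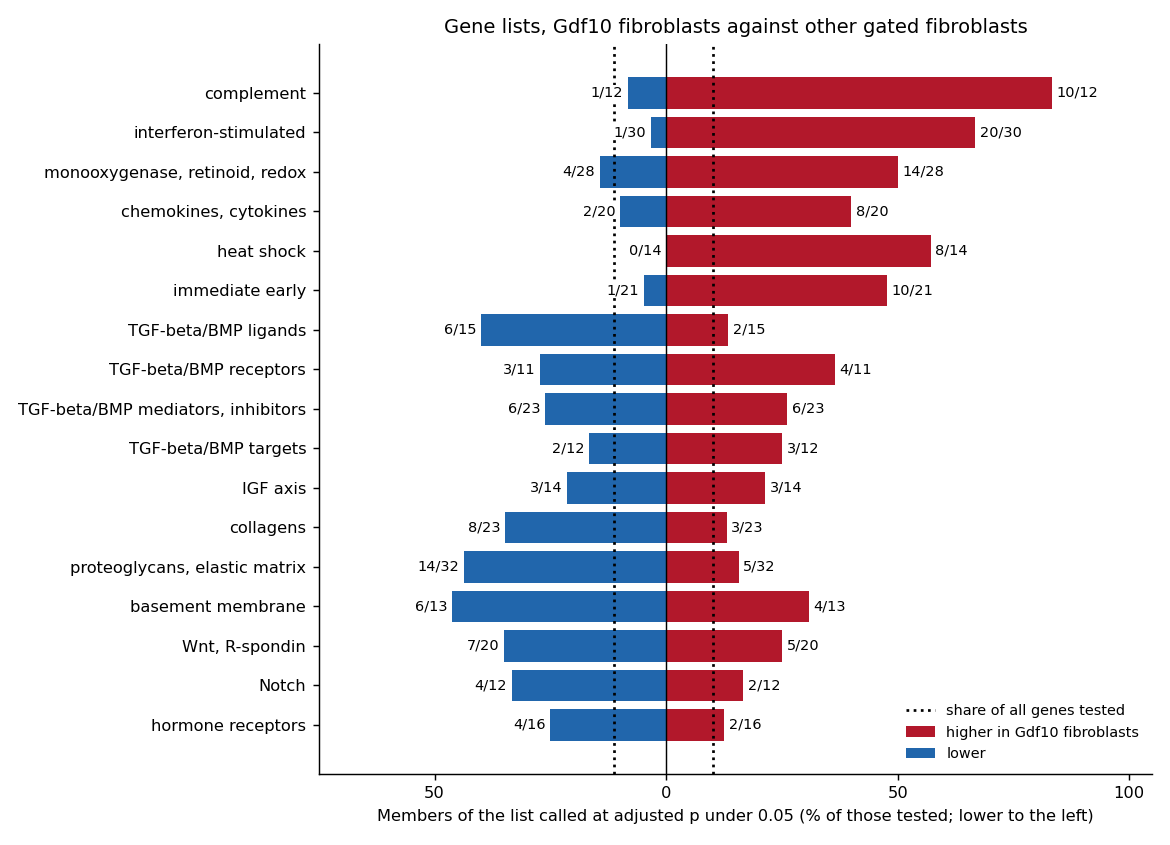
Bars give the percentage of each of the pathway and response lists plotted called higher (right, red) or lower (left, blue) in Gdf10 fibroblasts against the other fibroblasts, with counts of the genes tested, and dotted lines give the share of all genes (10.2% higher, 11.2% lower). Complement (10 of 12) and interferon-stimulated genes (20 of 30) extend farthest to the right among the plotted lists, and basement membrane genes (6 of 13) and proteoglycans (14 of 32) farthest to the left.

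Markers of other cell types and signs of handling differed as well. Of all genes 10.2% were higher and 11.2% lower. Of 7 mural genes tested 4 were higher: Abcc9, a channel subunit, by 2.45, Ndufa4l2 by 3.17, Notch3 by 1.59 and Kcnj8 by 1.12. Notch3 lost the call without KO2 or without WT2, and Kcnj8 without KO1, KO3 or WT1. Summed mural markers were 161 to 274 CPM against 34.8 to 66.1. The defining mural genes were low: Des stood at 1.9 CPM, Cspg4 at 6.1 and Higd1b at 0.1 in pooled Gdf10 fibroblasts, against 282, 120 and 72.8 in 52 mural cells. Of 6 endothelial genes tested, 2 were called higher and 1 lower. Plvap was higher by 2.51 and Kdr lower by 3.52. Leukocyte markers summed to 12.4 to 95.6 CPM, but 373 in KO3, against 15 to 86.7 in the others; epithelial markers summed to 78.5 to 304 against 45.1 to 215; adipocyte markers to 0.698 to 2.99, with 4 of 8 at 0. Their part in the results was not tested.

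Heat shock genes were higher in 8 of 14 and immediate early genes, which respond to tissue handling, in 10 of 21 (1 lower). Of all genes 10.2% were higher and 11.2% lower. Hspa8 was higher by 0.37, Dnaja1 by 0.49, Dnajb1 by 0.94 and the mRNA-decay factor Zfp36 by 1.05. The 8 became 3 when the other gates were not used to exclude cells and 1 without the library block, and the 10 became 3 and 2. Their part in the other differences was not tested.

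Against each class the rule sets apart, the Gdf10 fibroblasts differed in different genes. Against 736 cells of the Pi16 Dpp4 gate alone, 1274 of 10509 genes were higher (12.1%) and 1321 lower (12.6%). Hopx (log2 5.56), Tifa (5.26), Hhip (5.23), Stc1 (4.95) and Fgf23 (4.74) led the higher genes, and Myoc (at least 454-fold lower), Mrgprg (1 UMI against 73.2 CPM), Thbs4 (-6.66), Efhd1 (-5.74) and Aif1l (-5.58) the lower ones. Adventitial genes were lower in 16 of 18 and complement genes higher in 7 of 12.

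Cells of the Mme Fgf10 Scg3 gate alone numbered 510 in KO1, 294 in KO3, 366 in WT1 and 55 in WT2, and KO2, with 14, gave no sum of this class. Against them 1488 of 10509 genes were higher (14.2%) and 1395 lower (13.3%). Sema3d, a secreted guidance protein, stood at 38.1, 32.6, 34.1 and 67.4 CPM in KO1, KO3, WT1 and WT2 against 0 to 1.06 (log2 6.32, SE 0.33, adjusted p = 6.0e-11). C7 (6.06), Fmod (5.38), Alkal2 (5.31) and Wfdc1 (5.16) followed. Stra6, the receptor for retinol uptake, was lower by 6.12, and Igfbp2 (-5.94), Scube1 (3 UMIs, all in WT1, against 23.4 to 33.3 CPM), Nrgn (-5.52) and Tnc, tenascin C (-4.86), were lower too. Interferon-stimulated genes were higher in 19 of 30 and complement genes in 10 of 12, and adventitial genes were higher in 5 and lower in 2 of 18.

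Against 2570 cells of the Sbsn Krtdap Akr1c18 gate, which could also pass other gates, 1891 of 10162 genes were higher (18.6%) and 1804 lower (17.8%). Hhip was higher by 8.59 (29.2 to 229 against 0 to 1.53 CPM), with Fmod (8.40), Fgf23 (7.84), Tspan11 (7.74) and Pappa (7.11). Duox1, an oxidase that makes hydrogen peroxide, had no UMI in Gdf10 fibroblasts and was at least 67.6-fold lower. Myoc was at least 68.3-fold lower, and Mrgprg (1 UMI against 53.8 CPM), Dmkn (-7.37) and the integrin gene Itgb7 (2 UMIs against 43.5 CPM) were lower as well.

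By the rule, the 645 fibroblasts in no gate differ from the class in the Gdf10 count alone, but that count also depends on depth. In KO1, 93 of 144 Gdf10 fibroblasts reached 10000 UMIs, against 75 of 248 in no gate. In WT1 the counts were 74 of 123 and 62 of 176, and in KO3 12 of 37 and 28 of 81. The calls at a minimum of 10000 UMIs per cell are given at the end. For Gdf10 fibroblasts against fibroblasts in no gate, 660 of 9311 genes were higher (7.09%) and 627 lower (6.73%). C7 stood at 18.8, 34.7, 35.4, 24.9 and 17.1 CPM in KO1, KO2, KO3, WT1 and WT2 against 0 to 4.78 (log2 2.95, SE 0.37, adjusted p = 8.6e-05). Hhip was higher by 2.64, Gria4 by 2.51, Tspan11 by 2.50 and Hopx by 2.42. Myoc was at least 454-fold lower, Spp1, osteopontin, had 1 UMI against 57.6 CPM, Thbs4 fell by 8.28, Col26a1 was at least 34.9-fold lower, and the potassium channel gene Kcnk2 had 3 UMIs against 26.5 CPM. Complement genes were higher in 9 of 12 and interferon-stimulated genes in 10 of 29, with none lower. Heat shock genes were higher in 1, immediate early genes were higher in 3 and lower in 7, and basement membrane genes were lower in 7 of 12. The total of 1287 calls fell to 761 without KO1 and to 747 without WT1.

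A smaller set separated the class in all 4 contrasts. Of 9113 genes tested in all of them, 259 were higher each time (2.84%), which is 20.3% of the higher calls against the Pi16 Dpp4 class, 17.4% of those against the Mme class, 13.7% for the Sbsn class and 39.2% for fibroblasts in no gate. Hhip, Gria4, Tspan11, Hopx, C7, Fgf23 and Tifa are among them. Lower each time were 142 genes (1.56%), among them Bmp7 and Col12a1. The 4 contrasts share the Gdf10 fibroblasts, so such overlap is in part built in.

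The study's own comparison is knockout against wild type, and it was made first on the size of the class. Gdf10 fibroblasts were 6.5% of gated fibroblasts in KO1, 8.29% in KO2, 5.18% in KO3, 10.1% in WT1 and 9.75% in WT2. All 3 knockout libraries lay below both wild-type ones, at 6.66% ± 1.56 (SD, n = 3) against 9.95% ± 0.284 (SD, n = 2). The difference of -3.29 percentage points gave p = 0.2 in a two-sided exact permutation test over libraries, where the smallest possible p is 0.1. Between libraries of the same number the difference was -3.65 points for KO1 and WT1 and -1.46 for KO2 and WT2. With every cell thinned to 5000 UMIs it was -3.37 points. When the other gates were not used to exclude cells, the shares were 21.9%, 15.7%, 13.9%, 20.5% and 20.3%, and the groups overlapped.

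Gene levels within the class showed no difference that passed in the reported test, and settings that called some genes are given at the end. Of 8737 genes tested, 0 were called (percentage called 0) by edgeR's quasi-likelihood test, while 131 had an unadjusted p under 0.05. DESeq2 also called 0, and gave 77 such genes before adjustment. Label genes overlapped between genotypes: Gdf10 read 520, 716 and 629 CPM in KO1, KO2 and KO3 against 541 and 686 in WT1 and WT2, and Fmo2 264, 713 and 458 against 259 and 673. Cygb read 929, 710 and 1076 against 998 and 819, and Cxcl12 1132, 836 and 1055 against 1421 and 1086. Igfbp3 read 327, 314 and 232 against 267 and 828, where WT2 alone is high. Frmd3 read 13.8, 17.2 and 8.82 CPM against 11.6 and 5.

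Interferon-stimulated genes lay on 1 side, though none passed. All 28 tested were lower in knockout, with a median log2 difference of -0.73 beside -0.00 for all genes, and 12 had library ranges that did not overlap (6.79% of all genes were lower in this way). The summed level was 2977, 4493 and 3134 CPM in KO1, KO2 and KO3 against 7040 and 4872 in WT1 and WT2. Between KO1 and WT1 the median was -1.17 with 27 of 28 lower, and between KO2 and WT2 it was -0.20 with 21 of 28 lower. Leaving out WT1 moved the median to -0.43 and leaving out WT2 to -1.01. In the other fibroblasts too, the 3 knockout libraries lay below both wild-type ones, at 1481, 1873 and 1900 against 3268 and 2194 CPM, and the median interaction of genotype and class over the list was -0.04, with 0 genes called by edgeR.

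Single genes with the smallest p are given as values that did not pass (adjusted p = 0.9999 for each, edgeR). H2-D1, a class I histocompatibility gene, read 824, 772 and 538 CPM in KO1, KO2 and KO3 against 2358 and 1216 in WT1 and WT2 (log2 -1.32, SE 0.31). Gbp6, a GTPase, read 45.8, 55.3 and 58.8 against 132 and 91.5 (log2 -1.09), and B2m, the class I light chain, differed by -1.03, Slfn8 by -1.19 and C4b by -0.86. In these genes the groups do not overlap. In the interferon list Psmb8, Irgm1, Rtp4 and Oasl2 differed by -1.01, -0.99, -0.96 and -0.87. On the other side were Smc2 (1.31), a condensin subunit, Adcy7 (1.29), Hjurp (1.22), Stxbp3 (0.91) and Cdc16 (0.89). Smc2 turned to -0.58 when the other gates were not used to exclude cells.

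**Figure D3:**
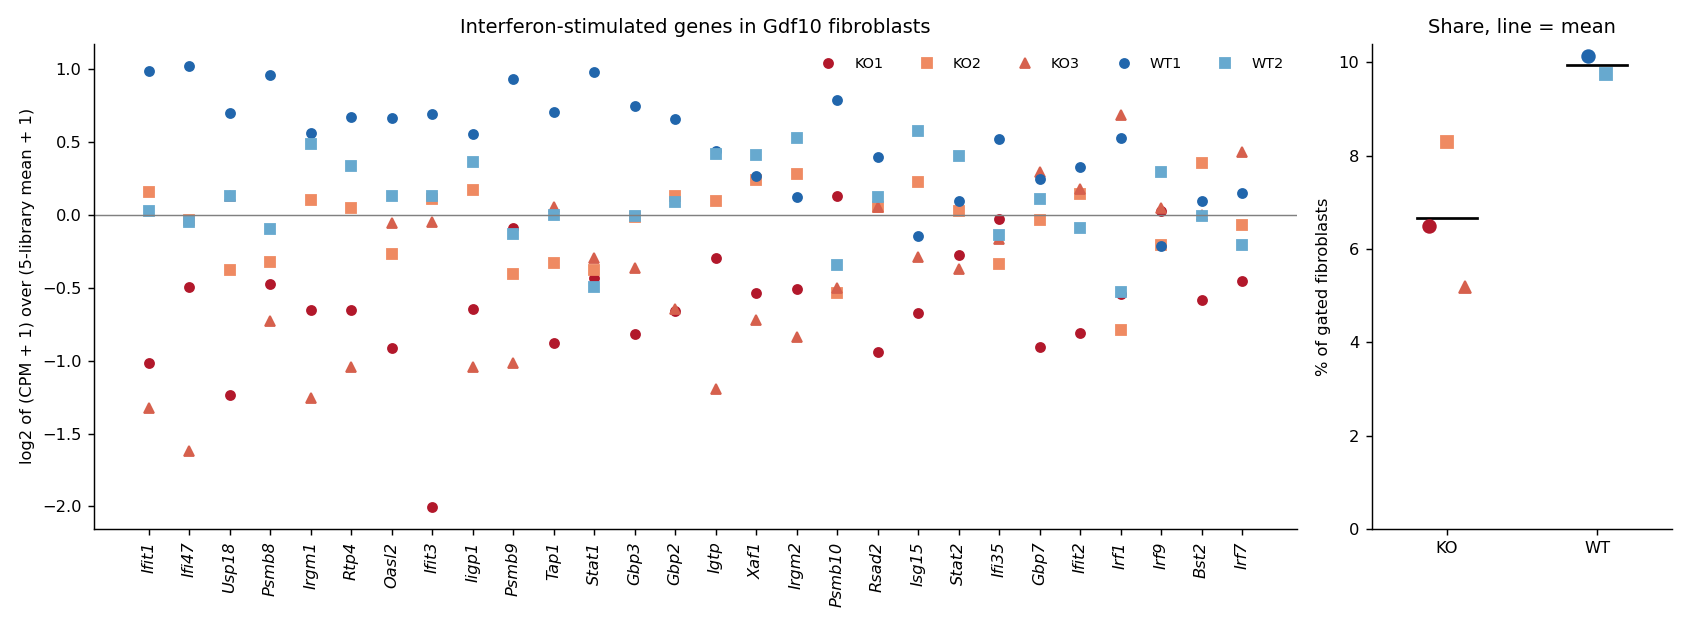
Left, interferon-stimulated genes in Gdf10 fibroblasts as the log2 of a library's CPM plus 1 over the 5-library mean plus 1, with a point per library; WT1 is highest for most genes. Right, the share of Gdf10 fibroblasts among gated fibroblasts per library (y axis from 0, line at the mean), with the knockout libraries at 5.18% to 8.29% and the wild-type ones at 9.75% and 10.1%.

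Complement genes were lower in 11 of 12, with a median of -0.35, and 0 were called. The ranges of 5 did not overlap, beside 6.79% of all genes that were lower in this way. The same-number medians were -0.39 and -0.41. Contractile genes of myofibroblasts were higher in 7 of 7 tested (median 0.39), but 0 were called. The ranges of 0 did not overlap, beside 6.43% of all genes that were higher in this way. Summed over the 9 listed genes, the untransformed level was 369, 446 and 540 CPM in KO1, KO2 and KO3. In WT1 and WT2 it was 332 and 356 CPM. Heat shock genes were higher in 14 of 14, with a median of 0.44 and 1 gene whose ranges did not overlap (6.43% of all genes were higher in this way), but the median was -0.02 without KO3. Hspa1b read 119, 144 and 3329 CPM in KO1, KO2 and KO3 against 135 and 84.0, so that KO3 alone is high. Among Notch genes, named in the study's title, Hes1, a target, read 79.8, 63.0 and 217 against 49.1 and 54.0 CPM (log2 1.11, SE 0.49), and Notch1 read 12.2, 9.54 and 11.8 against 26.6 and 18.0 (log2 -0.98, SE 0.36). Neither passed, and Notch1 turned to 0.029 when the other gates were not used to exclude cells. Of 9 Notch genes tested, 5 were higher and 4 lower.

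Whether the genotype difference in Gdf10 fibroblasts departs from that in the other fibroblasts was tested as an interaction. Of 12260 genes 0 passed (percentage called 0; edgeR), and 200 had an unadjusted p under 0.05.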

How the data were processed

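Single-cell libraries of mammary tissue from 5 mice, 3 labelled Frmd3 knockout and 2 wild type, were analysed. The authors deposited UMI counts per gene and cell barcode, made with Cell Ranger 6.0.2 (KO1, KO2, WT1, WT2) or 6.1.2 (KO3), per the file headers, on build mm10, per the submitters' processing notes. Cells were filtered as the report states; the doublet caller was run on simulated doublets (2 per cell, marking 0.8% of cells per 1000 barcodes in the library) and its 6 marked members stayed in. Counts were summed per library and class (at least 20 cells) and tested with edgeR 4.0.16 in R 4.3.3 (filterByExpr, TMM, robust quasi-likelihood, Benjamini-Hochberg, 0.05), with the library as a block within libraries; log2 standard errors came from the F statistic. DESeq2 1.42.0 was an alternative. The code was tested on simulated data. In the genotype comparison over 8737 genes, changes of 4-fold were recovered for 79% of changed genes and changes of 2-fold for 12%, with 12 false calls. Against other fibroblasts, over 12260 genes, these were 94% and 64%, with 23 false calls. In both simulations false calls made up a larger share of the calls than the threshold of 0.05 sets. P-values measure the spread between libraries, each 1 mouse per the design text. Untransformed CPM are raw sums per 1000000; other CPM are TMM-normalised.

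The members and gene lists were chosen with earlier results of these data known. Genes named against other fibroblasts are the 15 called genes of greatest log2 difference in each direction, if all libraries share the sign and the higher group reaches 20 CPM; the top 5 by that rule against other classes; for genotype, those with the smallest unadjusted p; and from each list up to 4 with the smallest p, plus TGF-beta, IGF and chemokine members of at least 20 CPM. The designed class of cells in the Sbsn Krtdap Akr1c18 gate alone held 12 cells and could not be tested, so cells that also pass other gates were used. Mural and endothelial cells had at least 3 UMIs of Rgs5 or Pecam1. Gene positions came from the GRCm38 annotation and promoters from RefSeq. Floors and counts cover counting error only. Some genes that the rule names are not reported here.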

Additional observations from a re-analysis of the deposited data

How the results depend on the processing

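Between the genotypes 0 genes were called by edgeR in the reported test, but 9 (1 higher, 8 lower) were called with no filter beyond 1 UMI, 7 without KO2 and WT2, and 0 to 4 when 1 library was left out (4 without WT1). The interaction gave 3 genes with no filter, 4 without KO2 and WT2, and 0 to 3 with 1 library left out. With the replicate number as a block, 95 genes (31 higher, 64 lower) of 9588 were called; the labels do not say that a number marks a shared day or litter, and the numbers give only 2 pairs, so this is not the reported test. Same-numbered libraries were more alike than libraries numbered 1 and 2. Deviations from the group means correlated at 0.36 for KO1 and WT1 and at 0.34 for KO2 and WT2. With 2 wild-type libraries, those of WT1 and WT2 are exact opposites (-1). Chi-square per degree of freedom was 5.31 and 4.40, against 13.6 to 21.2 between libraries numbered 1 and 2. The shallow KO3 read 5.38 against KO1, 7.46 against WT1, 7.28 against WT2 and 9.15 against KO2, but this value falls with depth. Log CPM correlated at 0.967 for KO1 and WT1 and at 0.963 for KO2 and WT2. It correlated at 0.922 to 0.952 between libraries numbered 1 and 2, and at 0.872 to 0.897 for pairs with KO3. Depth bears on both measures, so the KO3 pairs do not show whether likeness was particular to a shared number. Against other fibroblasts, 2610 calls became 1353 without the library block; 1337 of these were among the 2610. With cells thinned to 5000 UMIs 1726 of the 2610 were called again, 7 with the opposite sign, and with the other gates not excluded 1496, 28 with the opposite sign. For Gdf10 fibroblasts against fibroblasts in no gate, 1287 calls became 495 with at least 10000 UMIs per cell, where KO3 also dropped out with 12 members, and 747 to 1398 with 1 library left out. Smc2 and Notch1 turned to -0.58 and 0.029 between genotypes when the other gates were not used to exclude cells. Over all named genes and settings against other fibroblasts, 2275 values kept direction and side of the threshold, 57 lost and 7 gained the call. Depth limits the genotype comparison most in KO3, whose class summed to 334988 UMIs. The test against the Sbsn Krtdap Akr1c18 gate alone was not run.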
